A study of Mus musculus with 6 samples.

Results

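Accessible chromatin was examined at 9 genes of the tumour necrosis factor (TNF) superfamily in 3 kinds of cultured mouse helper T cells. The genes were the receptors Tnfrsf4, Tnfrsf18, Tnfrsf9 and Tnfrsf1b and the ligands Tnfsf8, Tnfsf11, Tnf, Lta and Fasl. Every peak in each gene body and in the 30 kb on either side was taken, in coordinates of the mm10 build of the mouse genome. Overlapping or adjoining peaks of the 6 libraries were merged into regions, which gave 96 regions at the 9 genes, of 236017 regions in the whole data set. Tnfrsf4 and Tnfrsf18 are neighbours on chromosome 4, as are Tnf and Lta on chromosome 17, so the 9 genes formed 7 loci.

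The cells were wild-type C57BL6/J naive CD4+ T cells, from spleen per the labels and from spleen and lymph nodes per the study's methods. All were activated with antibodies to CD3 and CD28 and cultured to the fifth day with an antibody that blocks interferon-gamma. Th2 cells also received IL-4 and IL-2. Th9 cells received IL-4, IL-2 and TGF-beta1, and Th17 cells received IL-6, TGF-beta1, IL-23 and IL-1beta with antibodies that block IL-4 and IL-2. For each subset there were 2 libraries, numbered 1 and 3 in the labels, made by ATAC-seq, in which the Tn5 transposase cuts and tags accessible DNA. The sources used here do not say whether replicates came from separate mice, so p-values describe only the spread between these libraries.

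TNF superfamily ligands are mostly trimeric proteins of the cell surface, and their receptors signal through TRAF adaptors or death domains to NF-kappaB, to MAP kinases or to caspases. Tnfrsf4 encodes OX40, Tnfrsf18 encodes GITR and Tnfrsf9 encodes 4-1BB, costimulatory receptors that activated T cells display. Tnfrsf1b encodes TNFR2, the TNF receptor without a death domain. Tnfsf8 encodes CD30 ligand, Tnfsf11 encodes RANKL, which drives osteoclast formation, Tnf and Lta encode TNF and lymphotoxin-alpha, and Fasl encodes Fas ligand, which triggers apoptosis through Fas.

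A library was said to call a region when at least 1 bp of the region lay under a peak of its list. Strength was read as fold enrichment over background, the authors' own value, and as its percentile within the library's own list, where 100 is the strongest peak. The lists held 100317 to 142213 peaks and carried no read counts, so depth was not given and the limit of detection was read from the weakest call. That call had a fold enrichment of 2.11 in Th9 replicate 1 and 1.71 to 1.83 in the other 5 libraries. Th9 replicate 1 also had the longest list, and whether weak sites were less detectable in it was not tested. The promoters of 4 of 5 T cell genes had a peak in all 6 libraries, while Cd4 had one in 4 libraries. The B cell markers Ms4a1, Cd79a, Pax5 and Cd22 were called in no library. Of 5 myeloid markers, Cebpa was called in all 6 and Cd14 in both Th2 libraries and Th17 replicate 3, whereas Lyz2, Csf1r and Itgam were called in none. Of 4 markers of natural killer and CD8 T cells, Cd8b1 was called in all 6 and Klrb1c in Th2 replicate 1, and Ncr1 and Cd8a in none. Il17f was called in both Th17 libraries and in no other, and Il4 in both Th9 and both Th2 libraries and in neither Th17 library.

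The sequences below belong to the regions on which the results turn. Each of the first 6 is the central 200 bp of the stretch covered in every library that called the region, and the last 2 are the 250 bp upstream of a RefSeq start (GRCm38.p6, the assembly of mm10), read 5′ to 3′ along the gene. They were chosen because they carry large tested differences between subsets, were called in whole subsets only, or are promoters that were open throughout. Capitals mark matches, on either strand, to words known from the DNA preferred by transcription factor families, namely TGANTCA for AP-1, TTCNNNGAA for STAT proteins, AGATAA for GATA factors, AGGTCA for ROR receptors, TGGAAA for NFAT and the decamer of NF-kappaB.
Between Tnfrsf4 and Tnfrsf18, strongest in Th9 (chr4:156021963-156022162, plus strand): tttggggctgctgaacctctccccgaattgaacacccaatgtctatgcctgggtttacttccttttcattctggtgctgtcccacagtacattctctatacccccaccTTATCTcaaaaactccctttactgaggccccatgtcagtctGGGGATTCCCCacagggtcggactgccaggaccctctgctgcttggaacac
Tnfrsf1b intron, strongest in Th17 (chr4:145236251-145236450, plus strand): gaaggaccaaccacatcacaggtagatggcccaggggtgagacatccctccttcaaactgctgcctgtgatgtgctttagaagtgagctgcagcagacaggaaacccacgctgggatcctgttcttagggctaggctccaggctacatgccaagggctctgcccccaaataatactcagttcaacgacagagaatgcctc
Tnfrsf9 internal start, weakest in Th17 (chr4:150924670-150924869, plus strand): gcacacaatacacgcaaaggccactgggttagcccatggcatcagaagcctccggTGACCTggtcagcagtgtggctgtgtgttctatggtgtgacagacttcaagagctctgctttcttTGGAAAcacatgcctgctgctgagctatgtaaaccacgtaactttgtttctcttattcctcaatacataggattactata
Upstream of Tnfsf11, no peak in Th17 (chr14:78329983-78330182, plus strand): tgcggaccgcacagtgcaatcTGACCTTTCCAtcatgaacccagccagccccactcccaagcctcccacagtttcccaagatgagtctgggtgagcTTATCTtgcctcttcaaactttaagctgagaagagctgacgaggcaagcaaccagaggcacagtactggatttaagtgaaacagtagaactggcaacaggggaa
Downstream of Fasl, no peak in Th17 (chr1:161775066-161775265, plus strand): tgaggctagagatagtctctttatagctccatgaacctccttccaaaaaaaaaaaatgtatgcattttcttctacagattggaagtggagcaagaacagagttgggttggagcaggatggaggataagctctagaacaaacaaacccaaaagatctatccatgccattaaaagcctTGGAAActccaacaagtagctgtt
Downstream of Tnfsf8, peak in Th9 alone (chr4:63808082-63808281, plus strand): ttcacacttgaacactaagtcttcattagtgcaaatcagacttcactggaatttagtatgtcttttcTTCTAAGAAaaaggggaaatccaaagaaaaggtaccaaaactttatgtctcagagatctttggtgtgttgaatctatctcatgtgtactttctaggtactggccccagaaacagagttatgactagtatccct
Lta promoter, strongest in Th9 (chr17:35205352-35205601, minus strand): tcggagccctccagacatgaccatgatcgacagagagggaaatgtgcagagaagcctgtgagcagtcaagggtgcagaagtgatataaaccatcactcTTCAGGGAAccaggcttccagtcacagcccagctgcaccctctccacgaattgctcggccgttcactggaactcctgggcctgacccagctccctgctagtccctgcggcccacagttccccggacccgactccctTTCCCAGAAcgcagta
Tnfrsf9 internal promoter, open in all 6 libraries (chr4:150927749-150927998, plus strand): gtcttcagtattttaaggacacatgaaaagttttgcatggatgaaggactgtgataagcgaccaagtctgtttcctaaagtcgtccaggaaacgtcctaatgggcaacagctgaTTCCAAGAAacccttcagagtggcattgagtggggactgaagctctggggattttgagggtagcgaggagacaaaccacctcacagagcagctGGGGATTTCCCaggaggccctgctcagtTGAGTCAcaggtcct

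The region between Tnfrsf4 and Tnfrsf18 held 2 overlapping matches to the NF-kappaB decamer, a word found in the central 200 bp of 2.83% of all regions, and 1 AGATAA, found in 7.56%. The Tnfrsf1b intron region held no match, and the region at an internal Tnfrsf9 start held 1 AGGTCA and 1 TGGAAA. The region upstream of Tnfsf11 held AGGTCA and TGGAAA, which overlapped, and AGATAA, and the regions downstream of Fasl and of Tnfsf8 held 1 TGGAAA and 1 TTCNNNGAA. These words occurred in 11.7% (AGGTCA), 13.7% (TGGAAA), 5.51% (TTCNNNGAA) and 9.04% (TGANTCA) of all regions. RefSeq promoters of 300 bp, which include 50 bp past the start, were found for all 9 genes. The Lta promoter held 2 TTCNNNGAA words, present in 8.30% of all such promoters. The internal Tnfrsf9 promoter held TGANTCA, found in 7.81% of promoters, TTCNNNGAA, AGGTCA, found in 16.3% and here past the bases printed, and 2 overlapping matches to the NF-kappaB decamer, found in 4.51%. A match describes letters only, and no factor's binding was measured here.

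The 96 regions were called by all 6 libraries more often than regions in general, and 15 of them (15.6%) followed whole subsets, against 9.74% of all regions. Of the 96, 52 (54.2%) were called in all 6 libraries, against 21.4% of all regions. Both Th9 and both Th2 libraries, and neither Th17 library, called 6 regions, a pattern seen in 2.0% of all regions. Both Th2 libraries alone called 4 (2.87% of all regions), both Th17 libraries alone 2 (1.70%), and both Th9 libraries alone 1 (1.31%). Th2 and Th17 together called 2 (1.55%), and Th9 and Th17 together called 0 (0.296%). The remaining 29 regions (30.2%, against 68.9% of all regions) were called by some but not all libraries of a subset. Of these, 15 were called by a single library (15.6% of the 96, against 37.2% of all regions). The regions were also wider and stronger than most, with a median width of 1052 bp against 541 bp for all regions and a median percentile of 77.2 against 50.7.

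Each of the 9 genes had a promoter peak in all 6 libraries, where a promoter is the window that reaches 1000 bp before and 100 bp past any annotated start. Of all 21951 protein-coding genes, 58.7% had such a peak in all 6. The strongest promoter peaks in Th9 were those of Lta, whose percentiles were 98.9 and 99.1 in Th9 cells, 92.8 and 91.6 in Th2 cells and 90.8 and 89.1 in Th17 cells. Those of Fasl were among the lowest, at 76.5 and 63.5 in Th9 cells, 65.6 and 67.5 in Th2 cells and 63.3 and 55 in Th17 cells. Lta promoter percentiles in Th9 lay above those of both other subsets, while the Fasl subsets Th9 and Th2 overlapped. The plot of promoter percentiles shows the values of all 9 genes.

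**Figure D1:**
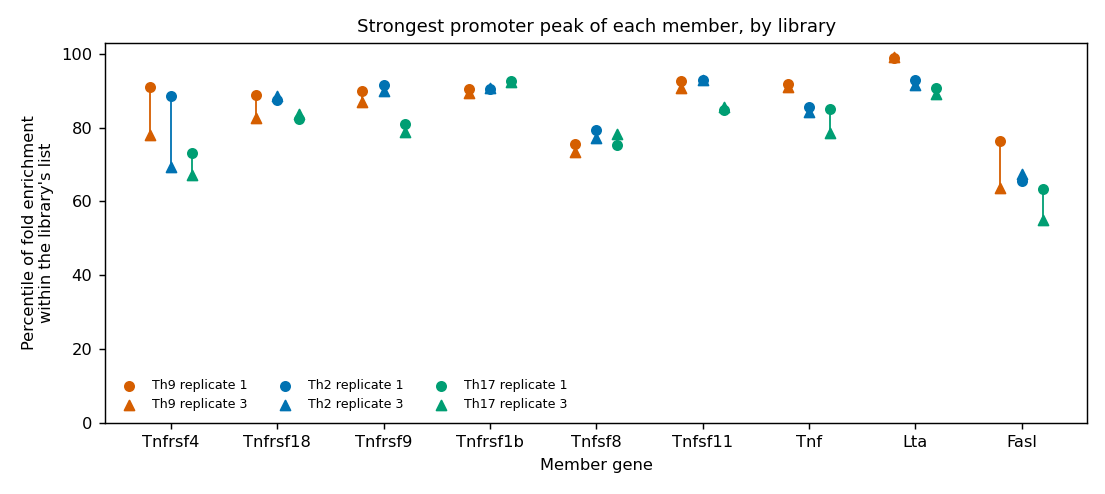
Percentile of fold enrichment of the strongest promoter peak (y axis, 0 to 100, within the library's own list) for the 9 genes (x axis); circles are replicate 1, triangles replicate 3, and colours the 3 subsets. Lta reaches 98.9 and 99.1 in Th9, and Fasl and Tnfrsf4 fall lowest, to 55 and 67.1.

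To ask where strength differed between subsets, the log2 fold enrichment of the 50493 regions called in all 6 libraries was quantile-normalized and compared with limma, a moderated linear model, with Benjamini-Hochberg adjustment over all 50493 regions. Of the 52 regions at the 9 genes that could be tested, 11 passed an adjusted p of 0.05 in at least 1 of 3 comparisons, giving 18 calls. In bulk libraries a weaker peak in every cell and a peak in fewer cells cannot be told apart. Against Th17, Th9 was higher in 4 regions, where 3.11% of all regions were higher, and lower in 4, where 2.90% were lower. Th2 was higher than Th17 in 5 (5.04% of all regions) and lower in 4 (2.40%). Between Th9 and Th2, 1 region passed, the Lta promoter, higher in Th9, where 1.01% of all regions were higher and 2.18% were lower. The median log2 difference over the 52 was 0.08 for Th9 minus Th2, 0.09 for Th9 minus Th17 and 0.06 for Th2 minus Th17, against 0.02, -0.0012 and -0.03 over all regions tested. The first of these medians over the 52 was -0.04 without Th9 replicate 3 or without Th2 replicate 1, and the last was -0.0003 without Th2 replicate 3. Of the 18 calls, 12 were lost when at least 1 library was left out, and each is described with that value. On a probit scale of the percentiles 10 of the 18 no longer passed (limma, adjusted p of 0.0575 to 0.272). These were both calls 16.2 kb upstream of Fasl and both 6.5 kb inside Tnfrsf1b, that of Th2 16.6 kb inside Tnfrsf1b, that of Th9 5.0 kb inside Tnfrsf9, and those 2.42 kb upstream of Tnfrsf9, 6.89 kb downstream of Tnfrsf18, 12.8 kb upstream of Tnfsf11 and 13.8 kb upstream of Tnfsf8. The share of calls in each direction depended on the scaling. With median scaling in place of quantile normalization, 52.1% of all calls between Th9 and Th2 were higher in Th9, against 31.7%, and the median of all regions moved from 0.02 to 0.12. With percentiles on a probit scale, 73.0% of calls between Th9 and Th17 and 90.6% of those between Th2 and Th17 were higher in the first subset, against 51.8% and 67.8%.

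**Figure D2:**
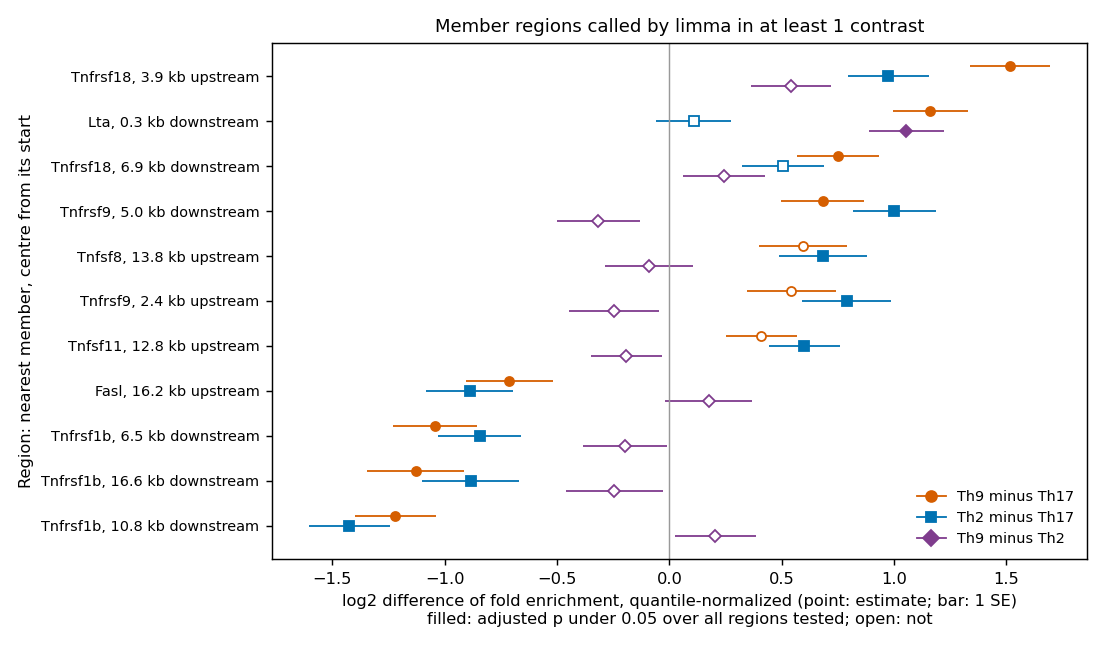
log2 difference of quantile-normalized fold enrichment (x axis, point and 1 SE) for the 11 regions that passed the limma test in at least 1 comparison (y axis, nearest gene and distance of the region's centre from its start); filled points passed an adjusted p of 0.05 over all regions tested. The region 3.87 kb upstream of Tnfrsf18 lies farthest right and the region 10.8 kb inside Tnfrsf1b farthest left.

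At the costimulatory receptors Tnfrsf4 and Tnfrsf18, the region between them was strongest in Th9 and weakest in Th17. It lies 3.87 kb upstream of Tnfrsf18, outside any annotated gene (chromosome 4, 156020827 to 156023755). Its fold enrichment was 15.4 and 15.8 in the Th9 libraries, 9.28 and 8.75 in Th2 and 4.61 and 4.07 in Th17, and no subset overlapped another. The peaks were 1433 to 2772 bp wide, and width did not separate the subsets. The log2 difference was 1.52 ± 0.18 (SE) for Th9 minus Th17 (limma, adjusted p = 0.000291) and 0.97 ± 0.18 for Th2 minus Th17 (adjusted p = 0.00292). Both calls held when each library was left out in turn, with adjusted p up to 0.0129 and 0.0451. Th9 minus Th2 was 0.54 ± 0.18 and did not pass (adjusted p = 0.114), but it passed with median scaling (adjusted p = 0.0413).

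A second region at this locus lies 6.89 kb downstream of the Tnfrsf18 start, over exons of Ttll10 (156029884 to 156036216). Its fold enrichment was 7.71 and 6.1 in Th9 cells, 5.45 and 5.91 in Th2 cells and 3.89 and 3.18 in Th17 cells. Th9 exceeded Th17 by 0.75 ± 0.18 on the log2 scale (limma, adjusted p = 0.0213), a call lost without Th9 replicate 1 (0.140), Th17 replicate 1 (0.118) or Th17 replicate 3 (0.202). Peaks here, summed within a library, covered 4951 to 6333 bp in Th9 and Th2 and 3466 and 3483 bp in Th17. A weak region 5.93 kb downstream of the Tnfrsf4 start was called in both Th2 libraries alone, at percentiles of 21.1 and 20.1. The Tnfrsf18 promoter, at percentiles of 82.4 to 88.9, passed no comparison (limma, lowest adjusted p = 0.652). At the Tnfrsf4 promoter the peak reached percentiles of 91.0 and 78.1 in Th9 cells, 88.7 and 69.2 in Th2 cells and 73.0 and 67.1 in Th17 cells. It belongs to a joined region of 9568 bp, so the limma value of that region does not describe the promoter alone. In all libraries but Th2 replicate 1 this region also holds a stronger peak over Sdf4. In Th2 replicate 1 the region held a single peak of 9148 bp, so 88.7 is not a value of the promoter alone. The Th9 and Th2 libraries overlapped only through that value, and Th2 replicate 3 lay within the range of Th17.

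At Tnfrsf9, which encodes 4-1BB, a region at an internal start was weaker in Th17 than in Th2, while the others at internal starts passed no comparison or were not tested. The first start of the basic annotation, at position 150920155 of chromosome 4, had no peak over the RefSeq promoter of 300 bp in any library. The peaks counted for this gene lie at internal starts. The region 5.0 kb downstream of the first start (150924054 to 150926286) had a fold enrichment of 5.01 and 4.21 in Th9 cells, 5.46 and 6.11 in Th2 cells and 2.53 and 2.63 in Th17 cells. Th17 lay below both other subsets, by 1.00 ± 0.18 for Th2 minus Th17 (limma, adjusted p = 0.00293) and 0.68 ± 0.18 for Th9 minus Th17 (adjusted p = 0.0374), both on the log2 scale. The first call was lost without Th17 replicate 1 (0.0547). The second was lost without any 1 of the Th9 or Th17 libraries (0.0827 to 0.270).

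The internal Tnfrsf9 promoter printed above lies in a region 7.71 kb downstream of the first start, at percentiles of 90.0 and 87.0 in Th9 cells, 84.1 and 84.9 in Th2 cells and 80.9 and 78.9 in Th17 cells. The subsets did not overlap in this order, but no comparison passed (limma, lowest adjusted p = 0.183). Another region over a Tnfrsf9 promoter window, 9.49 kb downstream of the first start, was called in Th2 replicate 1 alone, at a percentile of 46.2. A region 2.42 kb upstream of the first start, in a Tnfrsf9 intron of a longer transcript and over an exon of Camta1, had a fold enrichment of 4.96 and 5.84 in Th9 cells, 5.39 and 7.1 in Th2 cells and 3.81 and 2.71 in Th17 cells. The difference of Th2 from Th17, 0.79 ± 0.20 (limma, adjusted p = 0.0216), was lost without Th2 replicate 3 (0.148), Th17 replicate 1 (0.0554) or Th17 replicate 3 (0.294). A region at percentiles of 93.4 to 97.7 also overlaps the promoter of Park7, so its peak cannot be assigned to Tnfrsf9. Of 3 further regions that followed subsets, 1 was called in Th9 and Th2 alone (26.5 kb downstream of the first start, percentiles 57.1, 53.0, 66.1 and 1.73). Another was called in Th2 alone (29.2 kb, 64.4 and 49.7) and 1 in Th2 and Th17 alone (53.2 kb, 56.3, 57.7, 82.6 and 49.0).

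At Tnfrsf1b, which encodes TNFR2, 3 regions inside the gene were stronger in Th17 than in Th9 or Th2. The region in an intron 10.8 kb downstream of the start (chromosome 4, 145235393 to 145236767) had a fold enrichment of 9.23 and 7.39 in Th17, against 4.51 and 3.43 in Th9 and 3.45 and 3.64 in Th2. Both Th17 values lay above all others, and peak widths of 486 to 1252 bp did not separate the subsets. The log2 difference was -1.42 ± 0.18 for Th2 minus Th17 (limma, adjusted p = 0.000168) and -1.22 ± 0.18 for Th9 minus Th17 (adjusted p = 0.00100). These calls held when each library was left out, with adjusted p up to 0.00800 and 0.0313.

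The other 2 regions of the Tnfrsf1b body that passed were also lower in Th9 and Th2. The region 6.5 kb downstream of the start, in an intron, had a fold enrichment of 5.37 and 5.07 in Th17, 3.11 and 2.67 in Th9 and 3.24 and 3.55 in Th2. Th9 was lower than Th17 by -1.04 ± 0.19 (limma, adjusted p = 0.00341), which was lost without Th17 replicate 3 (0.0616). Th2 minus Th17 was -0.85 ± 0.19 (adjusted p = 0.00925) and was lost without Th17 replicate 1 (0.0579) or replicate 3 (0.127). The region 16.6 kb downstream, which overlaps an exon, had a fold enrichment of 5.03 and 6.29 in Th17, 2.99 and 2.86 in Th9 and 3.10 and 4.15 in Th2. Its log2 difference of -1.13 ± 0.22 for Th9 minus Th17 (limma, adjusted p = 0.00511) was lost without Th17 replicate 3 (0.119). That of -0.88 ± 0.22 for Th2 minus Th17 (adjusted p = 0.0177) was lost without Th2 replicate 1 (0.113) or Th17 replicate 3 (0.288).

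Not every region of the Tnfrsf1b body followed this order. The region 25.5 kb downstream of the start, over an exon, had a fold enrichment of 6.40 and 5.26 in Th9 cells, 4.07 and 4.93 in Th2 cells and 3.77 and 4.16 in Th17 cells, and Th9 minus Th17 was 0.34 ± 0.19 (limma, adjusted p = 0.376). In an intron 3.88 kb downstream the values were 2.26 and 2.18 in Th9 cells, 2.72 and 2.84 in Th2 cells and 2.54 and 2.38 in Th17 cells, and neither comparison with Th17 passed (limma, adjusted p = 0.215 for Th9 and 0.939 for Th2).

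Both regions at the 9 genes that were called in Th17 alone also lay in Tnfrsf1b. One, over an exon 22.1 kb downstream of the start, had percentiles of 75.9 and 79.6 and stayed called in both Th17 libraries when peaks with a −log10 q under 5 were dropped. The other, in an intron 13.0 kb downstream, had percentiles of 47.7 and 49.7. A region 48.4 kb downstream was called in Th2 alone, at 53.3 and 33.1. The Tnfrsf1b promoter itself was at percentiles of 89.3 to 92.7 in all libraries and passed no comparison (limma, lowest adjusted p = 0.419). Upstream of the gene, Th2 peaks, summed within a library, covered far more DNA. In a region 15.2 kb upstream they covered 9059 and 9005 bp, against 1920 and 2937 bp in Th9 and 3058 and 1997 bp in Th17. In a region 26.8 kb upstream, which overlaps an exon of Tnfrsf8, they covered 7741 and 11890 bp, against 159 and 1788 bp in Th9 and 2016 and 1480 bp in Th17. The 7741 bp of Th2 replicate 1 lay in 5 peaks and the 11890 bp of Th2 replicate 3 in 1.

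**Figure D3:**
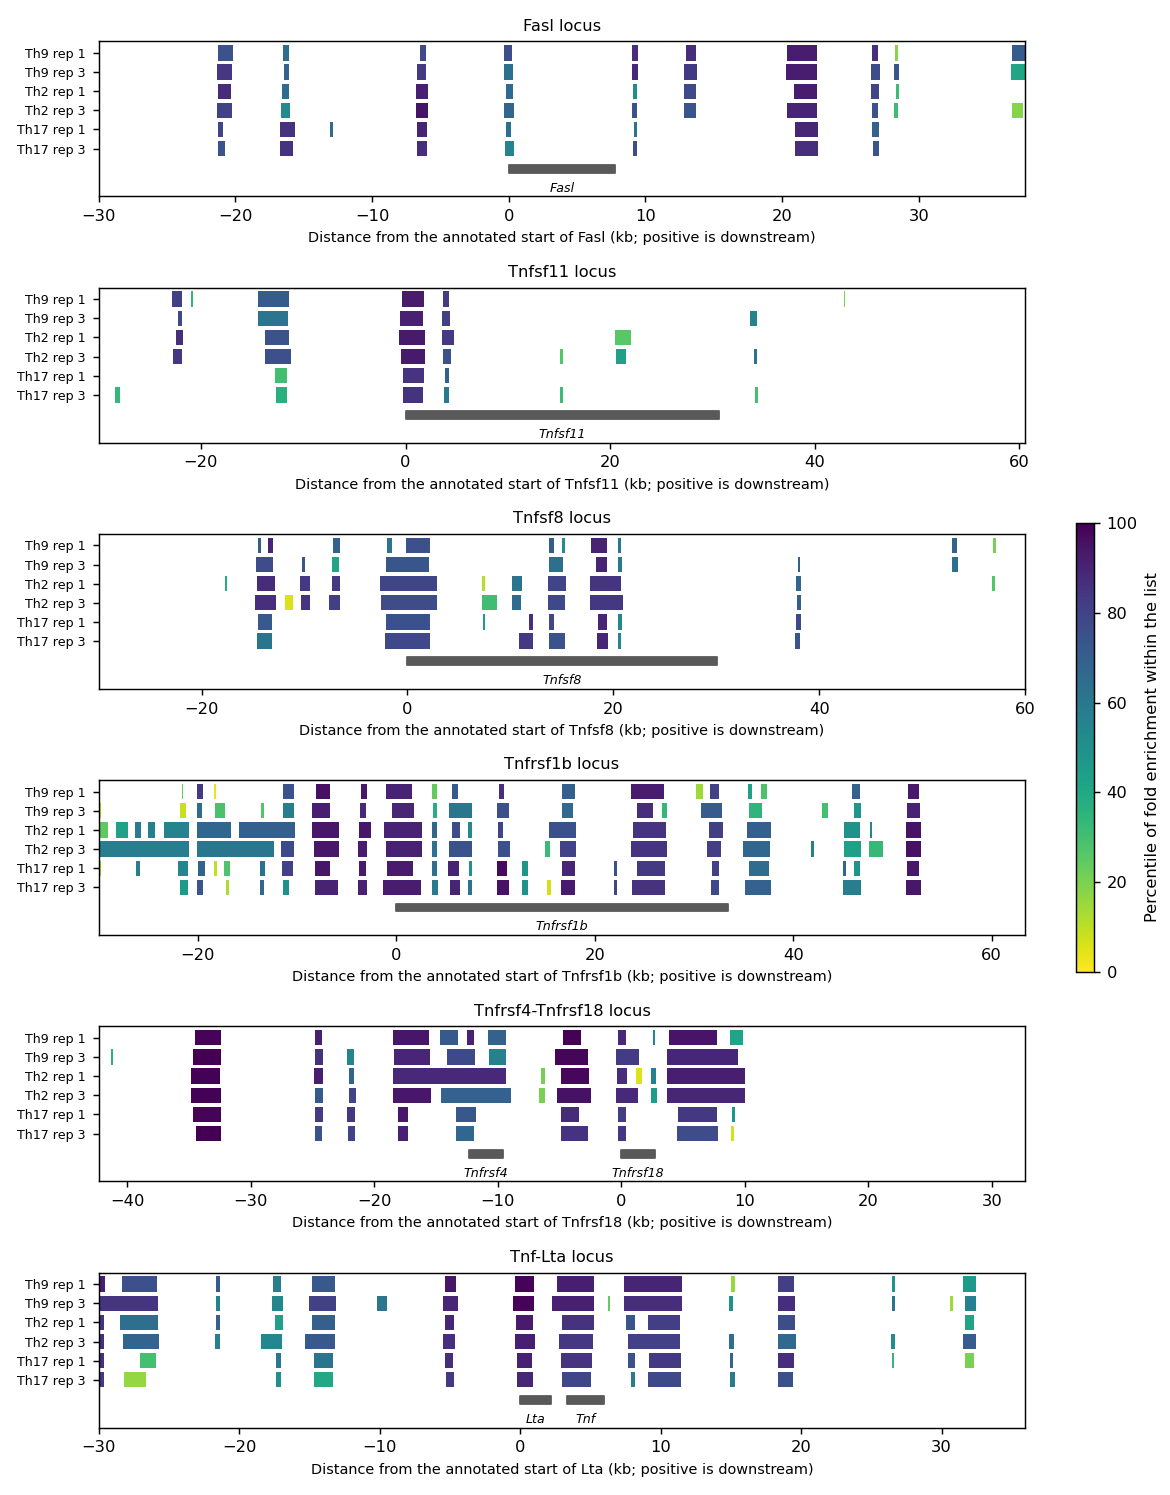
Peaks of each library (rows) at 6 of the 7 loci, drawn to scale by distance from the gene's start (x axis, kb, positive downstream) and coloured by percentile of fold enrichment within the list; grey bars are gene bodies. Th17 rows have no bar 13.3 kb downstream of Fasl or 22.3 kb upstream of Tnfsf11. Th2 bars cover more of the DNA upstream of Tnfrsf1b than those of Th9 or Th17.

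Among the ligands, Tnfsf8, the gene for CD30 ligand, had distal regions that followed subsets while its promoter did not. The promoter was at percentiles of 75.4 and 73.4 in Th9 cells, 79.4 and 77.2 in Th2 cells and 75.2 and 78.2 in Th17 cells, and it passed no comparison (limma, lowest adjusted p = 0.834). The 1 region called in Th9 alone at the 9 genes lies 53.2 kb downstream of the Tnfsf8 start, beyond the gene's end (chromosome 4, 63807862 to 63808434), at percentiles of 68.8 and 64.1. When peaks with a −log10 q under 5 were dropped, it stayed called in Th9 replicate 3 but not in Th9 replicate 1. A region 7.07 kb upstream was called at percentiles of 84.2 and 81.6 in Th2 and 69.2 and 41.0 in Th9, and in neither Th17 library. A region 13.8 kb upstream had a fold enrichment of 4.53 and 5.22 in Th2 cells, 5.34 and 3.59 in Th9 cells and 2.89 and 2.45 in Th17 cells. Th2 exceeded Th17 there by 0.68 ± 0.20 on the log2 scale (limma, adjusted p = 0.0427), and this call was lost without any 1 of the Th2 or Th17 libraries (0.105 to 0.304).

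Inside Tnfsf8, a region 11.1 kb downstream of the start, over an exon, was called at percentiles of 61.9 and 65.4 in Th2 and 86.7 and 83.2 in Th17, and in neither Th9 library. No base of it was covered in all 4 of these libraries, since the peak of Th17 replicate 1 lay beside the Th2 peaks and that of Th17 replicate 3 reached into them.

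At Tnfsf11, the gene for RANKL, 1 upstream region had peaks in Th9 and Th2 but not in Th17, and another was stronger in Th2 than in Th17. The region 22.3 kb upstream of the start (chromosome 14, 78329830 to 78330838) was called at percentiles of 80.6 and 77.6 in Th9 and 86.0 and 84.2 in Th2 and in neither Th17 library. It stayed called in all 4 when peaks with a −log10 q under 5 were dropped. The region 12.8 kb upstream was called in all 6, with a fold enrichment of 3.06 and 2.68 in Th9 cells, 3.07 and 3.66 in Th2 cells and 1.96 and 2.0 in Th17 cells. Its peaks spanned 2347 to 3020 bp in Th9 and Th2 and 1123 and 1108 bp in Th17. Th2 exceeded Th17 by 0.60 ± 0.16 (limma, adjusted p = 0.0269), lost without Th2 replicate 3 (0.163), Th17 replicate 1 (0.249) or Th17 replicate 3 (0.184). Th9 minus Th17 was 0.41 ± 0.16 there and did not pass (adjusted p = 0.153). A region in an intron, 21.2 kb downstream of the start, was called in Th2 alone, at 25.9 and 43.3. The promoter was at 92.7 and 90.8 in Th9 cells, 93.0 and 93.0 in Th2 cells and 84.8 and 85.5 in Th17 cells. Th17 lay below the other subsets, but the differences of 0.46 ± 0.18 for Th9 and 0.52 ± 0.18 for Th2 did not pass (limma, adjusted p = 0.158 and 0.0926).

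The promoter of Lta was the region at which Th9 stood apart from both other subsets. Its fold enrichment was 12.5 and 16.9 in Th9 cells, 5.88 and 6.68 in Th2 cells and 5.46 and 4.84 in Th17 cells, over peaks of 1111 to 1473 bp (chromosome 17, 35204308 to 35205823). The log2 difference was 1.05 ± 0.17 for Th9 minus Th2 (limma, adjusted p = 0.00513) and 1.16 ± 0.17 for Th9 minus Th17 (adjusted p = 0.000958). Leaving out any library kept both calls, with adjusted p up to 0.0425 and 0.0257, and so did each other processing tried. Th2 and Th17 differed by 0.11 ± 0.17 (adjusted p = 0.807). The neighbouring Tnf promoter had a fold enrichment of 6.12 and 6.92 in Th9 cells, 4.19 and 4.77 in Th2 cells and 4.10 and 3.30 in Th17 cells. Th9 again lay above all others, but 0.52 ± 0.18 against Th2 and 0.58 ± 0.18 against Th17 did not pass (limma, adjusted p = 0.130 and 0.0721). A narrow region 21.5 kb upstream of Lta, in an intron of Nfkbil1, was called in Th9 (71.4 and 56.4) and Th2 (70.3 and 56.3) and in neither Th17 library.

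At Fasl, whose promoter peak was weak, distal regions differed in both directions. The region 13.3 kb downstream of the start (chromosome 1, 161774695 to 161775662) was called at percentiles of 87.5 and 83.0 in Th9 and 77.5 and 73.1 in Th2 and in neither Th17 library, and it stayed called in all 4 when peaks with a −log10 q under 5 were dropped. The region 16.2 kb upstream was instead strongest in Th17, with a fold enrichment of 4.22 and 4.08, against 2.78 and 3.01 in Th9 and 2.58 and 2.45 in Th2. Its peaks were 1042 and 940 bp wide in Th17 and 390 to 665 bp elsewhere. Th2 minus Th17 was -0.89 ± 0.19 (limma, adjusted p = 0.00885), lost without Th17 replicate 3 (0.108). Th9 minus Th17 was -0.71 ± 0.19 (adjusted p = 0.0383), lost without Th9 replicate 1 (0.230), Th17 replicate 1 (0.128) or Th17 replicate 3 (0.257). A narrow region 28.4 kb downstream was called in Th9 (17.8 and 73.3) and Th2 (31.1 and 31.0) and in neither Th17 library. The Fasl promoter passed no comparison (limma, lowest adjusted p = 0.516).

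Other Fasl regions came close to the threshold between Th9 and Th2 in opposite directions. The region 6.32 kb upstream had percentiles of 77.6 and 82.6 in Th9 and 91.1 and 95.2 in Th2, a log2 difference of -0.82 ± 0.22 (limma, adjusted p = 0.0510). The region 9.24 kb downstream had 87.4 and 88.6 in Th9 and 50.9 and 74.9 in Th2, a difference of 0.88 ± 0.24 (adjusted p = 0.0582). With median scaling this second region passed (limma, adjusted p = 0.00666), while the first did not (0.0509).

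**Figure D4:**
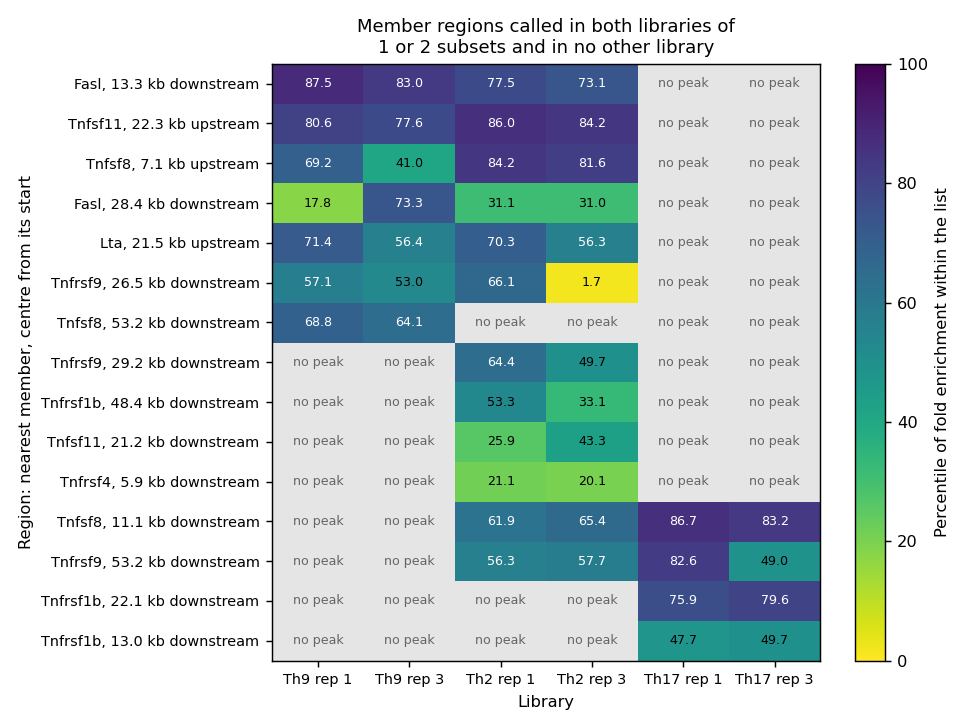
Percentile of fold enrichment within the list for the 15 regions called in both libraries of 1 or 2 subsets and in no other library (rows, nearest gene and distance of the centre from its start; columns, libraries); grey cells have no peak. Of the 6 regions shared by Th9 and Th2, the ones 13.3 kb downstream of Fasl and 22.3 kb upstream of Tnfsf11 have percentiles of 73.1 to 87.5.

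A region without a peak in a library has no value there and was not shown to be closed. The main test left out the 15 regions that followed subsets, since the missing peaks define them. The alternative with imputed values took in regions of this kind. Its results there are not read as support, since the missing values were set to the lowest fold.

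The length of DNA under peaks also varied by subset at some loci. At Tnfsf11 it was 7.11 and 7.0 kb in Th9 cells, 8.24 and 8.09 kb in Th2 cells and 3.59 and 4.40 kb in Th17 cells. At Tnfrsf1b it was 17.8 and 21.3 kb in Th9 cells, 38.1 and 44.2 kb in Th2 cells and 22.5 and 25.8 kb in Th17 cells. At Tnfrsf4 and Tnfrsf18 it was 16.6 and 20.5 kb in Th9 cells, 23.1 and 24.2 kb in Th2 cells and 11.4 and 11.9 kb in Th17 cells. At these 3 loci libraries of a subset were closer to each other than in any other way of pairing the 6 libraries (one-sided exact permutation test over 15 pairings, p = 0.0667, the smallest the design allows). At the other 4 loci the same test gave an exact permutation p = 0.2. Over the whole genome Th2 peaks covered 118 and 108 Mb, against 102 and 80.7 Mb in Th9 and 96.0 and 91.5 Mb in Th17, and the part of this in the Th2 values was not tested.

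**Figure D5:**
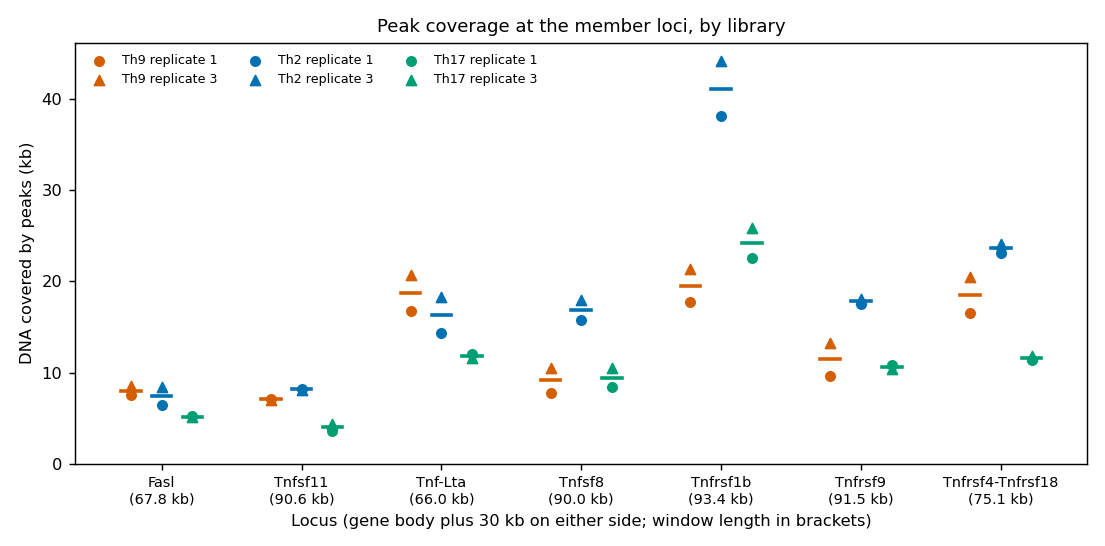
DNA under peaks (y axis, kb) at the 7 loci (x axis, window length in brackets); circles are replicate 1, triangles replicate 3, bars the mean of 2 libraries, colours the subsets. Both Th2 libraries lie above all others at Tnfrsf1b, and both Th17 libraries lie below all others at Tnfsf11 and at Tnfrsf4 with Tnfrsf18.

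Promoters of other TNF superfamily genes were read against the share of 58.7% given above for protein-coding genes in general. Of 12 further ligands, 6 had a promoter peak in all 6 libraries, 3 in some and 3 in none (Tnfsf12, Tnfsf13 and Tnfsf18, which encodes the GITR ligand). Cd70, the ligand of CD27, was called at percentiles of 78.5 and 73.5 in Th9 and 60.4 and 47.4 in Th2 and in neither Th17 library. Tnfsf15 was called in all but Th17 replicate 3, and Cd40lg in Th2 replicate 3 alone. Of 17 further receptors, 12 were called in all 6 libraries, 4 in some and 1, Tnfrsf17, in none. Ltbr, the lymphotoxin-beta receptor (33.4 and 36.1 in Th9, 57.5 and 58.9 in Th2), and Tnfrsf13c, the BAFF receptor (57 and 53.3 in Th9, 20.3 and 61.2 in Th2), were called in neither Th17 library. Tnfrsf11b was called in all but Th2 replicate 1, and Tnfrsf13b in Th9 replicate 3 alone. All 17 adaptors and downstream proteins, such as Traf2 and Rela, were called in all 6. The promoter regions that could be tested numbered 6 for the ligands, 14 for the receptors and 19 for the adaptors, and 1 passed in any of the 3 comparisons. It was 1 of 2 promoter regions of Traf1, a TRAF adaptor, higher in Th9 than in Th17 by 0.76 ± 0.19 on the log2 scale (limma, adjusted p = 0.0273). Of all regions tested, 3.11% passed in that direction. The other Traf1 promoter region differed by 0.12 ± 0.19 and did not pass (adjusted p = 0.798). This call was not rechecked with libraries left out.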

How the data were processed

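Per the labels and the study's methods, the authors trimmed reads with Trim Galore 0.4.3, aligned them to mm10 with bowtie2, removed duplicates with Picard and called broad peaks in each library separately with MACS2 2.1.0, with no control and one genome-wide background. In that mode peaks are ranked without a local background, and the cutoff was not given in the sources used here. The deposited lists give for each peak a fold enrichment (a ratio), −log10 p and −log10 q. The fold enrichment, as deposited, was turned into a percentile within each list, the −log10 q served as a filter and the −log10 p set lists to equal length. The integer score in the deposited lists was not used.

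Peaks were joined into regions with pandas 2.3.3 and numpy 2.4.6 under Python 3.11.15. A library with several peaks in a region was given its strongest. Genes came from the GENCODE M21 basic set on GRCm38, and promoter sequence from RefSeq. limma 3.58.1 in R 4.3.3 was fitted to all 6 libraries, which share one estimate of the spread, and was tested on simulated data. Lists hold no counts, so no counting interval was given, and 2 libraries per subset limit precision. A single value per library was compared by an exact permutation test.

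All 9 genes are named. Regions were described one by one where they overlapped a promoter of a member, passed limma or were called in both libraries of 1 or 2 subsets and in no other, and 7 regions were chosen for description after their values had been seen (2 wide regions upstream of Tnfrsf1b, 2 inside it, 2 near Fasl and 1 at Park7). A marker gene of the fixed lists is not reported here. The genes, lists and tests were chosen with earlier results of these data known. Alternatives covered filters on −log10 q (5) and fold (4), lists of equal length, windows of 10 and 50 kb, coverage of 50% of a region, promoters of 2000 bp on either side, median scaling, a probit scale, a width-weighted mean, imputed values for uncalled libraries, a replicate block and each library left out. A minimum fold of 2.2 was added after seeing the data.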

Additional observations from a re-analysis of the deposited data

How the results depend on the processing

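None of the 18 calls at the 9 genes changed direction under an alternative in which it was tested. The calls 16.2 kb upstream of Fasl, 12.8 kb upstream of Tnfsf11 and 6.5 and 16.6 kb inside Tnfrsf1b could not be tested at the −log10 q filter. There, not all 6 libraries kept a peak. Of the 18, 6 held under all alternatives and with each library left out: those of the Lta promoter, the region between Tnfrsf4 and Tnfrsf18 and the Tnfrsf1b intron region 10.8 kb from the start. On the probit scale 10 of the 18 were lost, and 4 were lost with imputed values, in which an uncalled library takes the lowest fold of its list (limma, adjusted p of 0.0525 to 0.0697: Th9 against Th17 16.2 kb upstream of Fasl, and those upstream of Tnfsf11, Tnfsf8 and Tnfrsf9). The direction of the summaries did depend on the processing: calls between Th9 and Th2 were 31.7% higher in Th9, or 52.1% with median scaling, and the median over all regions for Th2 minus Th17 was -0.03, or 0.02 on the probit scale. Why counts moved was not tested. The lists give no depth, so a region without a peak was not shown to be closed.

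The 52 regions called in all 6 libraries became 34 at a −log10 q of at least 5, 14 at a fold enrichment of at least 4, 33 in windows of 10 kb and 24 when 50% of a region had to be covered. Regions that followed subsets numbered 15 in the main setting, then 9, 9, 9 and 26 in the same order, and 19 to 22 with each library left out. These were not the 15 described above with some lost. At a fold of at least 4, the regions 13.3 kb downstream of Fasl and 22.3 kb upstream of Tnfsf11 counted for Th9 alone and Th2 alone. The region 5.0 kb downstream of the first Tnfrsf9 start, called in all 6 libraries before, then counted as shared by Th9 and Th2. Regions shared by Th9 and Th2 alone numbered 6 in the main setting, 2 at the −log10 q filter and 3 in windows of 10 kb. At a minimum fold of 2.2 the counts were 45, 11 and 5. The 3 loci with the smallest permutation p became 2 at a fold of at least 4 and 2 with lists of equal length.

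Calls over all regions for Th9 against Th2, Th9 against Th17 and Th2 against Th17 were 1611, 3034 and 3756. They were 136, 791 and 1534 on the probit scale, 4288, 10085 and 12242 with imputed values, and 1052, 1127 and 1798 at the −log10 q filter. With each library left out they ran from 455 to 1009, 816 to 3633 and 1296 to 4340. At the 9 genes the counts were 1, 8 and 9. They became 4 and 3 for the last 2 comparisons on the probit scale, 3, 14 and 14 with imputed values and 2, 5 and 5 at the −log10 q filter. The imputed counts came from 78 regions at the 9 genes, some with missing peaks set to the lowest fold, and are not read as support. With each library left out they ran from 1 to 2, 3 to 9 and 3 to 9, lowest for both last comparisons without Th17 replicate 3, and median scaling gave 3 for Th9 against Th2. The sources used here do not say whether equal replicate numbers pair the libraries. The correlation of replicate 1 minus replicate 3 was 0.21 between Th9 and Th2, 0.0098 between Th9 and Th17 and 0.00096 between Th2 and Th17, which does not settle it. With the replicate block the calls were 2205, 3506 and 4300 over all regions and 3, 9 and 10 at the 9 genes, with both Fasl regions near the threshold among them (limma, adjusted p = 0.0243 upstream and 0.0167 downstream).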
